A study of Homo sapiens with 6 samples.

Results

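The mesenchymal markers and inducers of epithelial-to-mesenchymal transition (EMT) described here are VIM, TWIST1, SNAI2, FN1, LOX, LOXL2, SPARC and TGFBI. They were chosen by name, with earlier results of these data known, from a table of 12659 genes. The wider gene lists below were chosen in the same way. Of these 8 genes, 6 are described; SNAI2 and LOXL2 are not analysed here. The 6 were among the 11764 genes kept by a filter on low values, a line mean of 1 FPKM or more in NCI-H1650 or NCI-H1650Re; TWIST1 passed through its NCI-H1650 mean alone, and its call was the same with no filter. FPKM, fragments per kilobase of transcript scaled to library depth, is a level per gene length, so levels of different genes can be compared.

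The 6 libraries of polyadenylated RNA came from the established lung adenocarcinoma line NCI-H1650, labelled pre-LUAD, and from NCI-H1650Re, labelled post-SCLC, with 3 libraries each. By these labels alone, the comparison is between a line before and a line after a change from adenocarcinoma towards small cell lung cancer. Each group is 1 cell line. How NCI-H1650Re was derived, whether it is a clone and whether any drug was present are not given in the labels, nor whether the replicates are separate cultures. The p-values therefore rest on the spread of these 3 libraries a line, which may be technical. Relative depth, from the ratio of counts to FPKM in 190 genes, was between 76.2% and 100% of the deepest library. Log2 profiles correlated at 0.980 to 0.997 between libraries of a line. The replicate 3 libraries stood apart from the others for several of the genes below and are given separately. Epithelial markers of lung carcinoma were high as a sum in every library. The summed level of EPCAM, KRT7, KRT8, KRT18, CDH1 and MUC1 was 2849 to 3790 FPKM in NCI-H1650 and 2967 to 3018 in NCI-H1650Re. Keratins made up most of that sum. The mean of EPCAM fell from 148 to 104 FPKM, of KRT8 from 1191 to 861 and of CDH1 from 247.5 to 140.6 (limma adjusted p = 0.00812, 0.0214 and 0.00234). KRT7, KRT18 and MUC1 did not pass the threshold of 0.05. Of all genes tested, 13.9% fell. NKX2-1, NAPSA and SFTPB are not analysed here. The neuroendocrine markers CHGA and SYP, used to mark small cell carcinoma, were read in the same libraries; INSM1 and NEUROD1 are not analysed here. CHGA was at 0.11 to 1.23 FPKM in NCI-H1650 and 2.22 to 5.15 in NCI-H1650Re, and SYP at 1.12 to 1.41 and 1.37 to 1.79. Both were low in NCI-H1650Re, and SYP overlapped between the lines. Whether NCI-H1650Re has a small cell identity was not tested.

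EMT is a programme in which epithelial cells loosen their junctions and take on a motile, matrix-producing state. Transcription factors of the Snail, ZEB and Twist families bind E-box sequences and repress E-cadherin. Vimentin filaments, fibronectin and enzymes that crosslink collagen mark the mesenchymal end of the programme. TGF-beta is its best-known inducer. In lung adenocarcinoma, features of EMT often accompany acquired resistance to EGFR inhibitors.

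Between NCI-H1650 and NCI-H1650Re, 3 of the 6 genes fell, none rose and 3 did not pass. TWIST1, LOX and TGFBI fell. VIM, FN1 and SPARC, which encode vimentin, fibronectin and osteonectin, did not pass with all 6 libraries. Among all genes tested, 13.9% fell, 16.6% rose and 30.5% changed in either direction (limma, Benjamini-Hochberg adjusted p of 0.05). With 6 genes a share is coarse, and nothing is read from it about mesenchymal genes as a class. The members' median log2 change was -0.41, beside 0.03 over all genes tested.

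The order of levels was the same in both lines. In NCI-H1650 the means ran from TGFBI (399 FPKM) through SPARC (142), FN1 (79.7), VIM (35.2) and LOX (6.16) to TWIST1 (3.79). In NCI-H1650Re they ran from TGFBI (224) through SPARC (153), FN1 (103), VIM (48.3) and LOX (1.10) to TWIST1 (0.653). The libraries of neighbours in this order did not overlap in NCI-H1650. In NCI-H1650Re each pair of neighbours except VIM and LOX overlapped, so the order there was not beyond the spread.

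**Figure D1:**
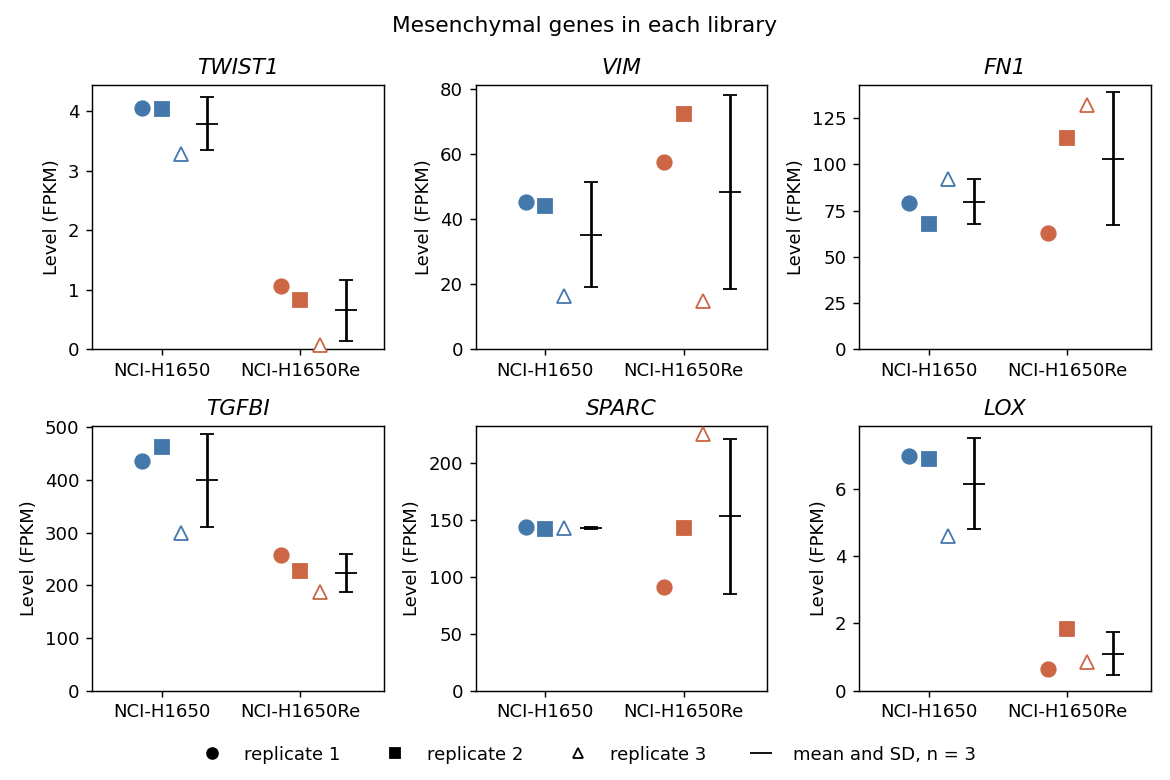
FPKM of the 6 genes in each library, with filled circles and squares for replicates 1 and 2, open triangles for replicate 3, and the mean with SD (n = 3) beside them; each vertical axis starts at 0. TWIST1, LOX and TGFBI sat lower in all 3 NCI-H1650Re libraries, from 0.07 to 1.06 FPKM for TWIST1 against 3.28 to 4.06 in NCI-H1650, while VIM was at 16.6 and 15.01 FPKM in the 2 replicate 3 libraries.

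Transcription factors come first. TWIST1 (ENSG00000122691, chromosome 7, 19020991 to 19117672, minus strand, GRCh38), a basic helix-loop-helix factor that drives EMT, had levels of 4.06, 4.03 and 3.28 FPKM in replicates 1, 2 and 3 of NCI-H1650. In those of NCI-H1650Re they were 1.06, 0.83 and 0.07. Every NCI-H1650Re library lay below every NCI-H1650 library. Of all genes tested, 47.2% had lines that did not overlap, 21% with NCI-H1650Re lower and 26.3% with it higher. The means were 3.79 ± 0.442 and 0.653 ± 0.518 (SD, n = 3 per line), a ratio of 0.172. The log2 change was -1.59 on FPKM + 1 (SE 0.23, limma adjusted p = 0.00276 by Benjamini-Hochberg), and 0.374% of genes tested, TWIST1 included, fell by as much or more. The size depended on the pseudocount added to these low values, at -2.77 with 0.1 and -3.19 with 0.01.

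Counts behind these TWIST1 values were few in NCI-H1650Re. They were 151, 130 and 93 in NCI-H1650 replicates 1, 2 and 3 and 36, 30 and 2 in those of NCI-H1650Re. The 95% Poisson interval of the last count, which covers counting error only, was 0.242 to 7.22, below that of the next lowest library, 20.2 to 42.8. Replicate 3 was thus the lowest NCI-H1650Re library beyond counting error. Without both replicate 3 libraries TWIST1 still fell, by 1.38 on the log2 scale (limma adjusted p = 0.000133). In the authors' deposited table TWIST1 is marked down, with a log2 fold change of -2.55 and an FDR of 1.8e-06.

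Other EMT transcription factors went both ways. Of 18 further factors and modulators named in a list, 12 were tested. Of these, 2 rose, 3 fell and 7 did not pass, with a median log2 change of 0.15. Over all genes tested, 16.6% rose and 13.9% fell. There were 4 rises and 3 falls among the 12 with both replicate 3 libraries left out, when 23.7% of all genes rose and 19.4% fell. FOSL1, an AP-1 subunit, rose from 8.14 ± 2.26 to 27.4 ± 10.1 FPKM. FOXC1, a forkhead factor of mesenchyme, rose from 3.52 ± 0.660 to 11.9 ± 3.73. TCF4, a partner of Twist proteins in E-box binding, was at 1.26, 1.47 and 0.80 FPKM in NCI-H1650 and at 0.09, 0.08 and 0.01 in NCI-H1650Re (log2 change -1.03, limma adjusted p = 0.00226); like TWIST1 it passed the filter through its NCI-H1650 mean alone. The change of TCF4 was -3.0 with a pseudocount of 0.1 and -4.35 with 0.01. TCF4 and TWIST1 had their lowest level in the same library, NCI-H1650Re replicate 3. The NCI-H1650Re levels of TCF4 were all very low (0.01 to 0.09 FPKM), so nothing is read from their order. SNAI1, a Snail factor, was 0.03 higher on the log2 scale (limma adjusted p = 0.841). TWIST2, the paralogue of TWIST1, was 0.86 higher and did not pass (limma adjusted p = 0.0828). ZEB1, ZEB2, SNAI3, PRRX1 and GSC are not analysed here.

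Vimentin, the intermediate filament protein of mesenchymal cells, came next. VIM (ENSG00000026025, chromosome 10, 17228259 to 17237593, plus strand) was at 45.1, 44.0 and 16.6 FPKM in NCI-H1650 and at 57.6, 72.3 and 15.01 in NCI-H1650Re. Replicates 1 and 2 were higher in NCI-H1650Re, and both replicate 3 libraries were low. The lines overlapped. The means were 35.2 ± 16.2 and 48.3 ± 29.8 (SD, n = 3 per line), and the log2 change of 0.31 had a 95% interval from -1.08 to 1.69 (limma adjusted p = 0.724). Without both replicate 3 libraries the log2 change was 0.52, with an interval of 0.27 to 0.77 (limma adjusted p = 0.00702), when 43.2% of all genes passed in either direction and 23.7% rose. The sign depended on single libraries. Leaving out replicate 3 of NCI-H1650 gave -0.15, and leaving out replicate 2 of NCI-H1650Re gave -0.11.

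VIM was set apart in replicate 3 more than almost any other gene. Against the mean of replicates 1 and 2, the log2 difference of VIM in replicate 3 was -1.38 in NCI-H1650 and -2.03 in NCI-H1650Re. The median of all genes was -0.02 and -0.03. Counted from the lowest of 11764 genes, VIM ranked 2 in NCI-H1650 and 4 in NCI-H1650Re. This difference within a line was larger than the 0.52 between lines in replicates 1 and 2. TWIST1 (-0.24 and -0.86) and TGFBI (-0.59 and -0.37) were also lowest in replicate 3 in both lines, as were 21.4% of genes tested. LOX was lower in replicate 3 in NCI-H1650 (-0.50), but its lowest NCI-H1650Re library was replicate 1. FN1 was highest in replicate 3 in both lines (0.33 and 0.63), as were 15.2% of genes. SPARC was level in NCI-H1650 (-0.002) and was higher in NCI-H1650Re replicate 3 (0.98), where it ranked 54 from the highest. What sets replicate 3 apart is not given in the labels and was not tested.

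**Figure D2:**
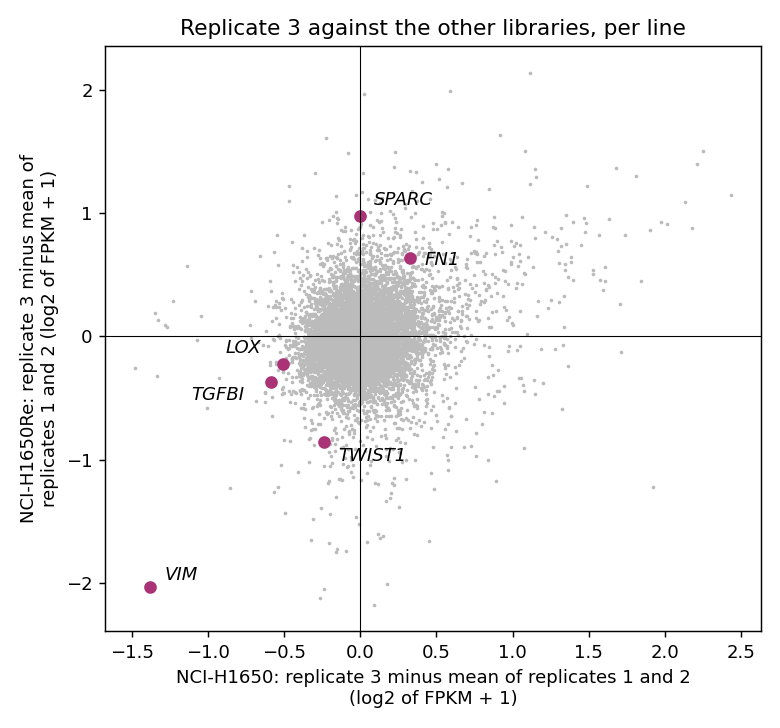
Log2 of FPKM + 1 in replicate 3 minus the mean of replicates 1 and 2, for NCI-H1650 on the horizontal and NCI-H1650Re on the vertical axis; grey points are the 11764 genes tested and coloured points the 6 named genes. VIM lies in the lower left corner at -1.38 and -2.03, apart from the cloud, while FN1 lies above 0 on both axes.

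The named gene whose levels followed VIM most closely over the 6 libraries was TICRR, a replication factor. Its Pearson r of log2 values was 0.985. TICRR was at 6.98, 6.72 and 5.73 FPKM in NCI-H1650 and at 7.68, 7.81 and 5.47 in NCI-H1650Re, so it shared the low replicate 3 libraries at a much smaller size. The best match of TWIST1 was NQO1, a quinone reductase (r = 0.998), and that of LOX was SPINK13 (r = 0.999). Those of FN1, SPARC and TGFBI were SLC35E4 (r = 0.988), EDN1, which encodes endothelin-1 (r = 0.995), and CDC42SE1 (r = 0.997). These 6 points fall into 2 lines and share the replicate 3 libraries. Each match has the highest positive r of the tested genes with a name and an annotated position. The values therefore describe likeness and carry no test.

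Fibronectin and osteonectin are matrix proteins. FN1 (ENSG00000115414, chromosome 2, 215360440 to 215436172, minus strand) encodes fibronectin, a glycoprotein that links matrix to integrins. It was at 79.1, 67.9 and 92.1 FPKM in NCI-H1650 and at 62.7, 114 and 132 in NCI-H1650Re. NCI-H1650Re replicates 2 and 3 were above all NCI-H1650 libraries and replicate 1 was below them. Its log2 change, 0.31, had a 95% interval of -0.29 to 0.91 (limma adjusted p = 0.389). Without NCI-H1650Re replicate 1 it was 0.63, with an interval of 0.32 to 0.94, and passed (limma adjusted p = 0.0157), when 24.8% of all genes passed in either direction and 13.1% rose. This was the only 1 of the 15 alternatives run in which FN1 passed. Leaving out NCI-H1650Re replicate 3 instead gave 0.098 (limma adjusted p = 0.763), the lowest value with 1 library left out.

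SPARC (ENSG00000113140, chromosome 5, 151661096 to 151687165, minus strand) encodes osteonectin, a secreted protein that binds collagen. It was at 143.5, 141.6 and 142.3 FPKM in NCI-H1650 and at 91.0, 142.5 and 225 in NCI-H1650Re. The 3 NCI-H1650 libraries were almost level, and those of NCI-H1650Re lay below, at and above them. The SD was 0.981 FPKM among NCI-H1650 libraries and 67.6 among those of NCI-H1650Re. Ranked by SD of log2 values from the lowest of 11764 genes, SPARC stood at 110 in NCI-H1650 and at 11653 in NCI-H1650Re. The log2 change, 0.005, had a 95% interval of -0.63 to 0.64 (limma adjusted p = 0.991). It was -0.32 without both replicate 3 libraries (limma adjusted p = 0.183).

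TGFBI (ENSG00000120708, chromosome 5, 136028895 to 136063818, plus strand) encodes a secreted matrix protein induced by TGF-beta and was the most abundant of the 6 genes. It was at 436, 463 and 299 FPKM in NCI-H1650 and at 257, 227 and 186 in NCI-H1650Re. All NCI-H1650Re libraries were below all NCI-H1650 libraries, and replicate 3 was the lowest of each line. The means were 399 ± 87.9 and 224 ± 35.5 (SD, n = 3 per line). The log2 change was -0.82 (SE 0.18, limma adjusted p = 0.0131). The call was lost when replicate 1 (limma adjusted p = 0.0514) or 2 (0.0548) of NCI-H1650 was left out. Without both replicate 3 libraries it was -0.89 (limma adjusted p = 0.000264). The authors' deposited table gives TGFBI a log2 fold change of -0.866 and an FDR of 2.29e-06, but does not mark it as regulated.

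LOX (ENSG00000113083, chromosome 5, 122063195 to 122078360, minus strand) encodes lysyl oxidase, which crosslinks collagen and elastin and is known as a target of hypoxia-inducible factors. It was at 6.98, 6.90 and 4.6 FPKM in NCI-H1650 and at 0.63, 1.83 and 0.84 in NCI-H1650Re. All NCI-H1650Re libraries were below all NCI-H1650 libraries. The means were 6.16 ± 1.35 and 1.10 ± 0.641 (SD, n = 3 per line), a ratio of 0.179. The log2 change of -1.79 (SE 0.22, limma adjusted p = 0.00155) was the largest of the 6 genes with a pseudocount of 1, and 0.281% of genes tested, LOX included, then fell by as much or more. With a pseudocount of 0.1 it was -2.49, and TWIST1 had the larger change (-2.77). Counts were 794, 682 and 399 in NCI-H1650 and 65, 201 and 78 in NCI-H1650Re. SRFBP1 overlaps exons of LOX on the opposite strand, and whether counting used strand is not given. Exons of VIM, TWIST1 and SPARC are also overlapped on the opposite strand, by antisense genes that are not analysed here. SRFBP1 was at 7.10 ± 0.567 and 6.15 ± 0.597 FPKM and did not pass (limma adjusted p = 0.166). In the authors' deposited table LOX is marked down, with a log2 fold change of -2.51 and an FDR of 1.59e-13.

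**Figure D3:**
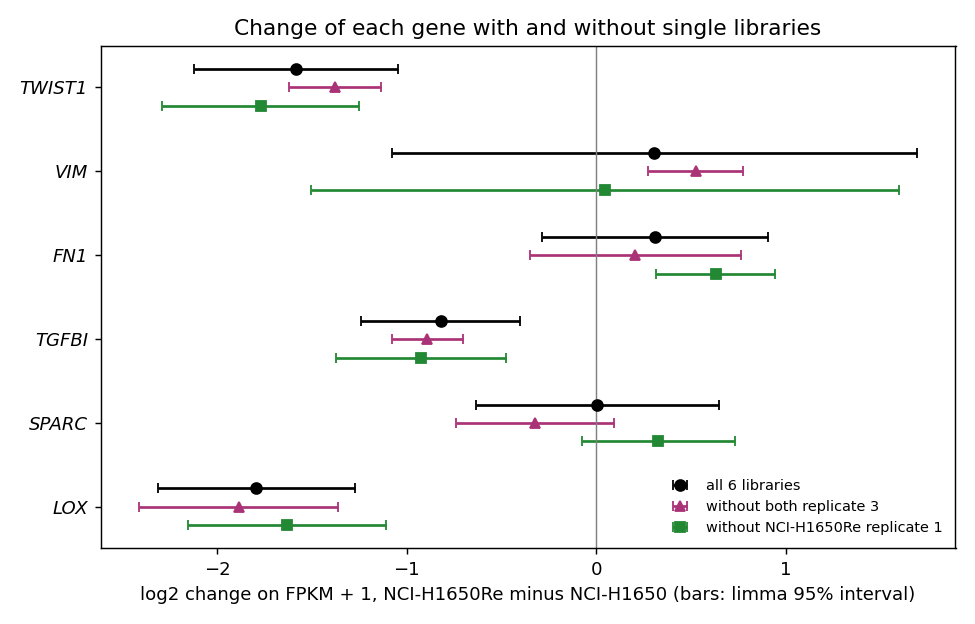
Log2 change of each gene on FPKM + 1, NCI-H1650Re minus NCI-H1650, with the limma 95% interval, from all 6 libraries, without both replicate 3 libraries and without NCI-H1650Re replicate 1. TWIST1, TGFBI and LOX lie below 0 in all 3 fits, the interval of VIM clears 0 only without both replicate 3 libraries (0.27 to 0.77), and that of FN1 only without NCI-H1650Re replicate 1 (0.32 to 0.94).

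Promoter sequence was examined for the genes with an entry in RefSeq (GRCh38.p14), 5 of the 6; TWIST1 had none. The 250 bases before each annotated start were searched on both strands for CAGGTG, the E-box bound by Snail and ZEB factors, CAGATG, an E-box bound by Twist, ACGTG, the core of the hypoxia response element, and TGAGTCA, the AP-1 site. Matches that overlap were counted separately. The farthest upstream of the 3 LOX starts held 4 ACGTG matches, at 185, 116, 98 and 42 bases before the start, and no match to the other 3 motifs. The windows of the other 2 LOX starts, which lie downstream, overlap and share the same 1 CAGGTG and 1 ACGTG. SPARC held 1 CAGATG, and VIM, FN1 and TGFBI held none of the 4 motifs. Of 35116 promoters of the same length, 17.5% held CAGGTG, 12.2% CAGATG, 18.5% ACGTG and 4.2% TGAGTCA, and 0.669% held at least 4 ACGTG. The cut of 4 was taken from the LOX window with the most matches, so that share carries no test. The stretches that lie upstream of all annotated coding transcripts are shown for LOX and TGFBI, both of which fell, because they differ in these matches; capitals mark ACGTG on either strand, of which 2 of the 4 lie in the LOX stretch (chr5:122078361-122078509, minus strand; TGFBI is chr5:136028738-136028894, plus strand).
LOX: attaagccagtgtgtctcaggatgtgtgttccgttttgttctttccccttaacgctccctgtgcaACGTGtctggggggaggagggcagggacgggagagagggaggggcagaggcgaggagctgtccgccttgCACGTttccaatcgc
TGFBI: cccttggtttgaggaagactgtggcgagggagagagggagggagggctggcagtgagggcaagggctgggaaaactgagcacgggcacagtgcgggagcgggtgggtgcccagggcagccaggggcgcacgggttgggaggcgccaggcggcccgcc
A match describes these letters only and is not a measured binding site.

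The chromosomal surroundings of the 6 genes differed. Each gene was set beside the 10 nearest tested genes on each side. Of all genes tested, 16.6% rose and 13.9% fell, with a median log2 change of 0.03. Around VIM, 13 of 20 neighbours rose, 2 fell and 5 did not pass, with a median log2 change of 0.50. RSU1, the nearest on one side, rose by 0.84, and ST8SIA6, on the other, fell by 1.11. VIM's own change of 0.31 was above 5 of its 20 neighbours. Around LOX, 9 of 20 fell and 2 rose (median -0.27), but none of the 20 fell as far as LOX; their lowest was -0.74. The same held for TWIST1, among neighbours of which 5 rose and 6 fell (median 0.01, lowest -1.20), and for TGFBI, among neighbours of which 9 fell and 1 rose (median -0.16, lowest -0.39). SPARC lay among 8 falls and 1 rise (median -0.20), below its own change of 0.005. Around FN1, 3 rose and 2 fell (median -0.09), and FN1's own change was above 19 of its 20 neighbours. LOX, TGFBI and SPARC all lie on the long arm of chromosome 5, in 3 separate windows. The part of such shifts in each gene's change was not tested.

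**Figure D4:**
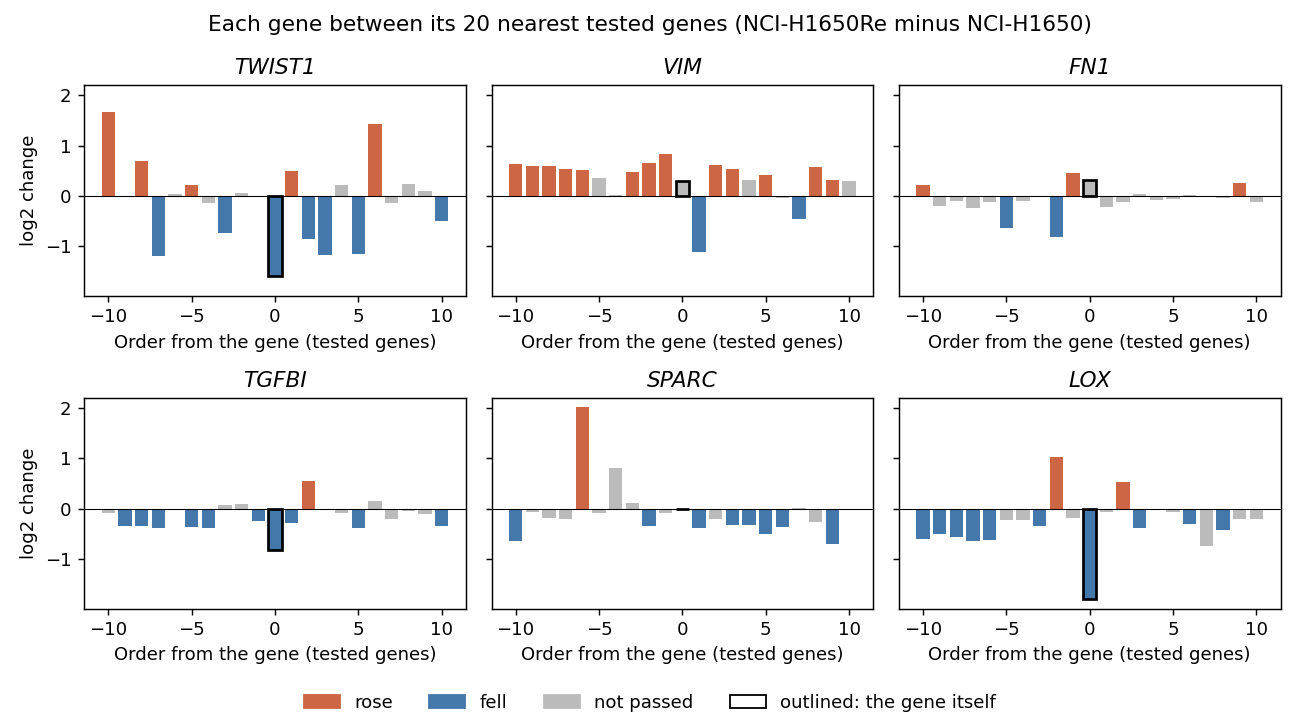
Log2 change of each gene (outlined, at 0) and of its 10 nearest tested genes on either side in chromosomal order, coloured by whether they rose, fell or did not pass. VIM stands among mostly rising neighbours (13 of 20), and TWIST1, TGFBI and LOX are each lower than all 20 neighbours. Of all genes tested, 16.6% rose and 13.9% fell.

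The wider mesenchymal programme was described from lists of named genes, without the 6 genes themselves. Cytoskeletal and surface genes of mesenchymal cells had 16 tested of 23 named. Among these, 5 rose, 1 fell and 10 did not pass, with a median log2 change of 0.02. Shares over all genes were 16.6% for rises and 13.9% for falls. Leaving out both replicate 3 libraries gave 6 rises and 3 falls among the 16, against 23.7% and 19.4% of all genes. NT5E, an ectonucleotidase of mesenchymal cells, rose from 5.65 ± 1.19 to 12.2 ± 1.42 FPKM. MYL9, a myosin light chain, rose from 110.5 ± 14.9 to 208.7 ± 29.9, and the actin crosslinker ACTN1 from 96.7 ± 6.66 to 153 ± 3.78. CDH2, which encodes N-cadherin, and ACTA2 are not analysed here.

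Matrix, crosslinking and matricellular genes had 23 tested of 28 named. Of the 23 tested, 7 rose, 6 fell and 10 did not pass, with a median of 0.12. The shares over all genes were 16.6% for rises and 13.9% for falls. With replicate 3 dropped from each line, the list had 7 rises and 8 falls, beside shares of 23.7% and 19.4% over all genes. FBLN1, which encodes the matrix glycoprotein fibulin-1, rose from 82.3 ± 4.22 to 222.9 ± 58.8 FPKM. CTGF, a matricellular protein, rose from 6.05 ± 0.531 to 15.3 ± 7.44, close to the threshold (limma adjusted p = 0.0467). That call was lost when any single library other than NCI-H1650Re replicate 1 was left out (limma adjusted p = 0.0794 to 0.153), when both replicate 3 libraries were (0.0789), and with either scaling, no filter or no variance trend. PLOD2, a lysyl hydroxylase that prepares collagen for crosslinking, was at 109.4, 97.3 and 71.8 FPKM in NCI-H1650 and at 33, 47.6 and 50.8 in NCI-H1650Re (log2 change -1.07, limma adjusted p = 0.00642). Every NCI-H1650Re library was below every NCI-H1650 library for PLOD2, as for LOX. Chosen after their values were seen, the other collagen-modifying enzymes of the list were P4HA1 (-1.0), LOXL4 (-0.99), PLOD1 (-0.41) and P4HA2 (-0.35), which fell, LOXL3, which rose by 0.65, and LOXL1 (0.03), which did not pass. LOXL4 passed the filter on low values through its NCI-H1650 mean alone, and LOXL3 through its NCI-H1650Re mean alone.

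TGF-beta ligands, receptors, SMADs and feedback genes had all 20 tested. Here 5 rose, 1 fell and 14 did not pass, with a median of 0.07, beside 16.6% rises and 13.9% falls over all genes. When both replicate 3 libraries were left out, 6 rose and 3 fell, against 23.7% and 19.4% of all genes. SKI, a corepressor of SMAD signalling, rose from 9.87 ± 0.592 to 17.6 ± 2.92 FPKM, and LTBP4, which binds latent TGF-beta, from 6.93 ± 0.868 to 9.50 ± 0.615. TGIF1, another SMAD corepressor, fell from 20.4 ± 0.741 to 15.5 ± 1.52. Without NCI-H1650Re replicate 2, 1 of the 20 rose and 0 fell, and neither LTBP4 (limma adjusted p = 0.0776) nor TGIF1 (0.0577) passed. TGIF1 was also lost when replicate 2 of NCI-H1650 was left out (limma adjusted p = 0.0619).

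Epithelial counterparts, a list of junction genes, keratins, epithelial transcription and splicing factors and other epithelial genes, had 22 tested of 23; 8 fell, none rose and 14 did not pass, with a median of -0.33. With both replicate 3 libraries left out 11 of the 22 fell and 2 rose, beside 19.4% and 23.7% of all genes. KRT19 and CDH1 fell by 3.59 and 0.82 on the log2 scale, and the desmosomal DSP from 95.5 ± 5.70 to 56.7 ± 16.9 FPKM. The call of DSP was lost when replicate 1 or 2 of NCI-H1650 (limma adjusted p = 0.0569 for each) or replicate 2 of NCI-H1650Re (0.0649) was left out. CDH1, which encodes E-cadherin, and TWIST1, known as its repressor, were both lower in NCI-H1650Re. KRT19 has processed pseudogenes that may share its reads, so its value is uncertain.

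**Figure D5:**
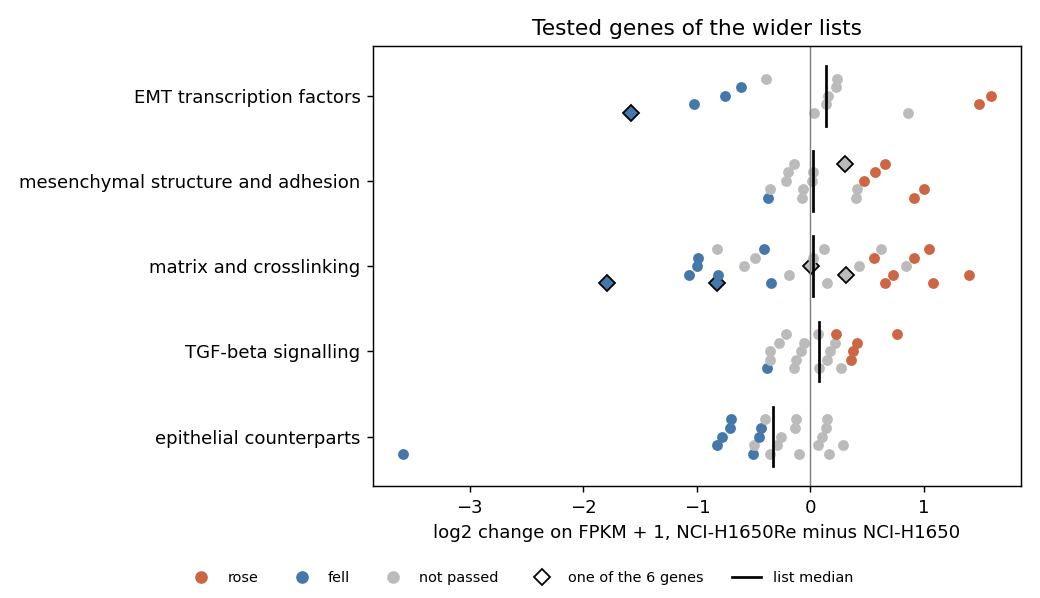
Log2 change on FPKM + 1 of the tested genes in 5 lists, coloured by whether they rose, fell or did not pass; diamonds are the named genes TWIST1, VIM, FN1, TGFBI, SPARC and LOX, and black bars are list medians with those genes included. Rises and falls stand on both sides of 0 in each list except the epithelial counterparts, where all 8 genes that passed fell. Over all genes tested, 16.6% rose and 13.9% fell.

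Markers of other cell types that express mesenchymal genes were read in the same libraries. Of 9 fibroblast markers, 4 were read, with a summed level of 23.8 to 28.6 FPKM in NCI-H1650 and 37.9 to 54.7 in NCI-H1650Re. COL1A2, DCN, LUM, PDGFRB and THY1 are not analysed here. Most of the difference in the sum was COL3A1, at 12, 9.24 and 9.02 FPKM in NCI-H1650 and 20.9, 37.4 and 39.1 in NCI-H1650Re, whereas PDGFRA was at 10.6 to 10.9 and 10.1 to 11.4. COL1A1 was at 0.98 to 1.05 and 1.05 to 2.69, and FAP at 3.20 to 4.85 and 3.47 to 4.07. Of 5 endothelial and 5 leukocyte markers, 1 each was read, TEK at 0.29 to 1.35 FPKM and CD14 at 0.13 to 1.86, both lower in NCI-H1650Re. Both levels are low, and both genes passed the filter on low values through their NCI-H1650 mean alone. In bulk RNA, fewer cells with a transcript and less transcript per cell cannot be told apart. The part of other cell types in these levels was not tested.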

How the data were processed

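Polyadenylated RNA of 3 NCI-H1650 and 3 NCI-H1650Re libraries was analysed. FPKM values per gene and library were deposited by the authors for 12659 genes, 750 of them without a name. The deposited read counts cover the 860 genes marked as regulated; they served for depth and were not tested. Per the file headers, the FDR (an adjusted p-value) and the log2 fold change are the authors' own. Tools in the submitters' processing notes are Bowtie2, HISAT2, DESeq2 and RSEM, with no version, and the build listed is mm10, although identifiers are human; the sources used here do not give a human build. All 10320 FPKM values held in several files were identical.

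The main test was limma 3.58.1 (R 4.3.3) with a variance trend on log2(FPKM + 1), NCI-H1650Re minus NCI-H1650, over the 11764 genes whose mean reached 1 FPKM in at least one of the lines. Benjamini-Hochberg adjustment ran over all of them, with a threshold of 0.05. The fit was tested on simulated data with independent noise in each library. Shifts shared between libraries, as in replicate 3, were not part of that simulation. Positions came from GENCODE release 29 (GRCh38; 11909 genes matched) and promoters from RefSeq (GRCh38.p14). The members and lists were chosen with earlier results of these data known. Named were the members, in each list up to 3 other genes that passed, taken by size of change, the nearest tested neighbour on each side, which is given here for VIM only, and the 3 genes most like each member, of which the first is given. Alternatives were a filter at 5 FPKM or none, pseudocounts of 0.1 and 0.01, 2 scalings (median-of-ratios and quantile), a replicate block, no variance trend, each library left out, and both replicate 3 libraries left out. Neighbours were also counted as 5 and 25 on each side. Python 3.11.15 and matplotlib 3.10.9 were used.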

Additional observations from a re-analysis of the deposited data

How the results depend on the processing

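LOX fell in all 15 alternatives run, and TWIST1 in all 14 in which it was tested; with the filter at 5 FPKM it was not. TGFBI passed in 13 of 15. FN1 passed in 1 of 15, without NCI-H1650Re replicate 1. VIM reversed without NCI-H1650 replicate 3 (log2 change -0.15) or NCI-H1650Re replicate 2 (-0.11), within a range of -0.15 to 0.98 over single libraries left out. SPARC reversed with median-of-ratios scaling (-0.022), without NCI-H1650Re replicate 3 (-0.32, range -0.32 to 0.33) and without both replicate 3 libraries (-0.32). None of these 5 values passed.

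Leaving out single libraries gave 1785 to 4478 genes changed, against 3587 with all libraries; the lowest were 1785 and 2386 with NCI-H1650 replicate 2 or 1 left out and 1898 with replicate 2 of NCI-H1650Re left out. It gave 0 to 1 rises and 2 to 3 falls among the 6 genes. With the 6 genes included in their lists, it gave 2 to 3 rises and 3 to 4 falls of EMT factors, 1 to 3 falls of structure and adhesion genes, 5 to 11 rises and 4 to 9 falls of matrix genes, 1 to 6 rises and 0 to 3 falls of TGF-beta genes, and 0 to 1 rises and 5 to 10 falls of epithelial genes. Without both replicate 3 libraries 1 of the 6 genes rose (VIM), and there were 4 rises of EMT factors against 2, 3 falls of structure and adhesion genes against 1, 3 falls of TGF-beta genes against 1, and 2 rises of epithelial genes against 0. The filter at 5 FPKM left 2 falls of EMT factors against 4, since TWIST1 and TCF4 were then not tested, and quantile normalization gave 2 falls of TGF-beta genes. The causes of the other changes were not tested. Neighbour medians with 5 or 25 genes on each side kept the sign they had with 10 for VIM, FN1, LOX, TGFBI and SPARC, that of LOX moving from -0.27 to -0.12 with 5. That of TWIST1 was 0.008 with 10, -0.085 with 5 and 0.082 with 25.

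The replicate numbers paired the libraries only in part. Deviations of same-numbered libraries correlated at 0.17, -0.04 and 0.21 for numbers 1, 2 and 3. NCI-H1650Re replicate 1 correlated best with NCI-H1650 replicate 2 (0.23). NCI-H1650Re replicate 3 correlated best with NCI-H1650 replicate 3, against -0.15 and -0.18 with NCI-H1650 replicates 1 and 2. With the replicate block 3522 genes changed, 4 EMT factors rose and 2 TGF-beta genes fell. VIM did not pass with the block (log2 change 0.31, limma adjusted p = 0.189). Its SE was 0.16 with the block and 0.60 without. Few counts limit TWIST1, with 2 in NCI-H1650Re replicate 3, a library at 81.1% of the deepest. Counts of VIM, FN1, SPARC and TGFBI were not used here.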
